A study of Homo sapiens with 6 samples.

Results

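The genes described here are 9 transcription regulators of prostate cancer cells, namely the pioneer factors FOXA1, HOXB13, GATA2 and GRHL2, the nuclear receptor coactivators NCOA1, NCOA2, NCOA3 and EP300, and the corepressor NCOR1. They were chosen by gene symbol, and all 9 were found among the 26255 genes listed in each sample. RNA was sequenced from 22RV1 cells, a human castration-resistant prostate cancer line. The cells were kept in serum-containing RPMI medium and received the vehicle DMSO (3 samples) or 10 nM of the quassinoid bruceantin (BCT; 3 samples) for 24 h. Both groups are the same cell line and so a single genetic background, and no source says whether the replicates were separate cultures, so the p-values measure only the spread between these samples. The comparison asks whether BCT changes the transcripts of these pioneer factors and coregulators.

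Nuclear receptors bind enhancers that pioneer factors have made accessible. FOXA1, a forkhead protein, is the classic pioneer factor of prostate cells and can bind closed chromatin. HOXB13 is a homeodomain protein of the prostate lineage, GATA2 is a zinc finger protein that binds enhancers, and GRHL2 is a grainyhead factor that maintains epithelial gene expression. Once bound, a nuclear receptor recruits coregulators. NCOA1, NCOA2 and NCOA3 form the steroid receptor coactivator family and serve as platforms for the histone acetyltransferase encoded by EP300, whereas NCOR1 is the scaffold of a complex that carries the histone deacetylase HDAC3 and lowers transcription.

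Levels are given as FPKM, a fragment count scaled to transcript length and to library size, so genes can be compared within a sample. In bulk RNA, fewer cells with a transcript and less of it per cell cannot be told apart. Differences are given as log2 fold changes of FPKM + 0.1 in BCT-treated against DMSO-treated cells, tested with limma over the 12729 genes whose mean reached 1 FPKM. Calls required a log2 fold change beyond 0.85 in either direction and a false discovery rate (FDR) below 0.05, and all 9 genes passed the filter on low values. FPKM holds no read counts, but the spacing of low values put the depth of the BCT libraries at 1.06 to 1.13 times that of DMSO replicate 1, against 0.878 to 1 for the DMSO libraries. The sum of FPKM was 1169649 to 1572321 with DMSO and 757534 to 799838 with BCT, of which the single gene MIR6087 took 43.5% to 55.3% and 31.7% to 32.5%. Forcing equal sums therefore shifted the all-gene median on the log2 scale from -0.04 to 0.72, and changed the calls from 1764 higher and 2263 lower to 5609 higher and 668 lower. The 7 luminal markers were detected in every sample, KRT8 and KRT18 among them, and their summed level was 845.1 to 852.2 FPKM with DMSO and 1758 to 1933 FPKM with BCT. The summed level of 3 basal markers stayed at or below 0.44 FPKM, and that of 2 endothelial markers at or below 0.051 FPKM. The 3 fibroblast markers summed to 1.499 to 1.59 FPKM with DMSO and 5.19 to 6.41 FPKM with BCT, mostly from COL1A1, and the 3 immune markers to 2.08 to 3.16 and 4.99 to 8.27 FPKM, nearly all of it CD68, while PTPRC did not exceed 0.036 FPKM. The 3 neuroendocrine markers summed to 46.1 to 51.8 and 39.0 to 41.5 FPKM, nearly all of it SYP. No marker was at 0 in all samples. The part of these shifts in the results below was not tested.

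In the values as deposited, BCT-treated cells had more EP300 and NCOA3 transcript and smaller rises in NCOA1, NCOR1 and GRHL2. They had less HOXB13, while FOXA1, GATA2 and NCOA2 did not pass the test. NCOA3 and EP300 were called higher, so 2 of the 9 genes were called higher beside 13.9% of all genes tested, and 0 were called lower beside 17.8%. On the FDR alone, which 39.3% of all genes passed as higher and 42.8% as lower, 5 of the 9 genes were higher (GRHL2, NCOA1, NCOA3, EP300 and NCOR1) and 1 was lower (HOXB13). The groups did not overlap in the same 6 genes. BCT lay above DMSO in 5, beside 41% of all genes, and below in 1, beside 44.3%. Passing the FDR or not overlapping was thus common among all genes. On the log2 scale the median difference was 0.52 over the 9 genes and -0.04 over all genes tested.

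**Figure D1:**
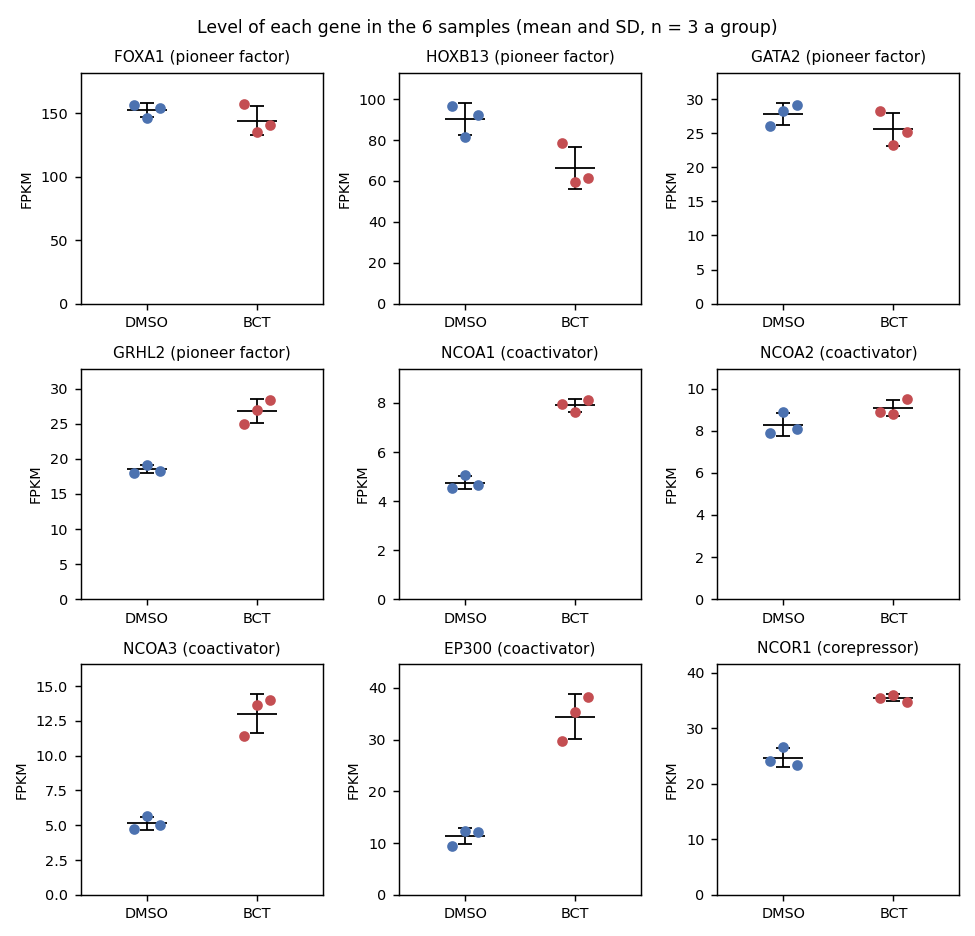
FPKM of each of the 9 genes in the 3 DMSO samples (blue) and the 3 BCT samples (red), with replicates 1 to 3 from left to right and black lines for the mean and SD. Each panel has its own axis from 0. EP300, NCOA3, NCOA1, NCOR1 and GRHL2 lay higher in every BCT sample than in any DMSO sample, HOXB13 lay lower, and FOXA1, GATA2 and NCOA2 overlapped.

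Among the pioneer factors, FOXA1 (chromosome 14, 38058757 to 38064325 of hg19, minus strand) had the highest level of the 9 genes. It measured 156.8, 146.5 and 154.3 FPKM in the DMSO samples and 157.1, 135.0 and 140.6 FPKM in the BCT samples. The highest FOXA1 value of all 6 samples was in BCT replicate 1, and the groups overlapped. The log2 fold change was -0.08 (95% interval -0.23 to 0.07, adjusted p = 0.265 from limma). The direction depended on the scaling, since FOXA1 was at 0.69 with equal FPKM sums, 0.30 with equal sums without MIR6087 and 0.23 after quantile normalization. It passed the FDR as higher in each of these (limma adjusted p = 1.8e-05, 0.00052 and 0.0056). Relative to the median of all genes, FOXA1 was at -0.045 as deposited, and at -0.034, -0.040 and 0.20 under these respective scalings. FOXA1 stayed the most abundant of the 9 transcripts in every sample.

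HOXB13 (chromosome 17, 46802127 to 46806111, minus strand) was the pioneer factor that fell in the values as deposited. Its values were 96.7, 81.5 and 92.2 FPKM with DMSO and 78.3, 59.3 and 61.3 FPKM with BCT. All 3 BCT samples lay below the DMSO samples, with BCT replicate 1 just under the lowest of them. The mean went from 90.1 ± 7.82 to 66.3 ± 10.5 FPKM (SD, n = 3 each), or -0.45 on the log2 scale (SE 0.11; limma adjusted p = 0.0051), which is short of the fold change threshold. The difference was -0.58 without BCT replicate 1 and -0.29 after correction for GC content and transcript length, and with equal FPKM sums HOXB13 was at 0.32, while the median of all genes was then 0.72.

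GATA2 (chromosome 3, 128198265 to 128222050, minus strand) measured 26.1, 28.3 and 29.1 FPKM in the DMSO samples and 28.2, 23.3 and 25.2 FPKM in the BCT samples. The groups overlapped, with BCT replicate 1 again at the DMSO level, and the log2 fold change was -0.12 (95% interval -0.30 to 0.06, adjusted p = 0.171 from limma). The sign turned with equal sums (0.64, or 0.26 without MIR6087) and with the GC and length correction (0.08). Relative to the median of all genes, GATA2 was at -0.086 as deposited and at -0.078, -0.082 and 0.13 under these respective alternatives. Leaving out BCT replicate 1 put both FOXA1 (-0.15, adjusted p = 0.021) and GATA2 (-0.20, adjusted p = 0.020) past the FDR in limma, so 3 genes rather than 1 were then lower on the FDR alone. Calls over all genes also grew in that fit, to 1932 higher and 2488 lower from 1764 and 2263. Its share of all genes lower on the FDR alone was not counted. The deposited interval is wider than the GENCODE gene, which runs from 128198270 to 128212044. The antisense gene GATA2-AS1 was deposited with the same interval as GATA2, and their exons overlap on opposite strands. It was at 15.3 ± 0.663 FPKM with DMSO and 15.7 ± 1.14 FPKM with BCT (SD, n = 3 each). No source states that fragments were assigned by strand, so reads of the GATA2 and GATA2-AS1 transcripts cannot be told apart where they overlap.

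GRHL2 (chromosome 8, 102504668 to 102681952, plus strand) was the pioneer factor that rose on the FDR. It measured 18.1, 19.2 and 18.3 FPKM in the DMSO samples and 24.96, 27.0 and 28.5 FPKM in the BCT samples. Every BCT value exceeded every DMSO value by more than the spread within either group. The difference was 0.53 on the log2 scale (SE 0.06; limma adjusted p = 6.2e-05), short of the threshold, and it was 0.49 after correction for GC content and length. Over the 6 samples, the tested genes whose centred log2 values lay nearest to those of GRHL2 were WHSC1L1 (Euclidean distance 0.040), RCOR1 (0.052) and RC3H2 (0.054).

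The steroid receptor coactivators changed unequally. NCOA3 (chromosome 20, 46130601 to 46285621, plus strand), which is amplified or overexpressed in several hormone-dependent cancers, measured 4.71, 5.66 and 5.01 FPKM under DMSO and 11.4, 13.6 and 14.0 FPKM under BCT. The lowest BCT value was more than any DMSO value by a wide margin, and BCT replicate 1 was the lowest of its group. NCOA3 rose 2.54-fold, or by 1.33 on the log2 scale (SE 0.10; limma adjusted p = 4.7e-06), above 94.1% of the genes tested. The gene was called under every alternative, with its lowest value, 1.06, after the GC and length correction. SULF2, a gene on the opposite strand with an overlapping exon, stayed below 0.8 FPKM in every sample, at 0.055 ± 0.025 FPKM with DMSO and 0.665 ± 0.088 FPKM with BCT.

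NCOA1 (chromosome 2, 24807346 to 24993570, plus strand) was the lowest expressed of the 9 genes with DMSO, at 4.54, 5.07 and 4.66 FPKM, and stood at 7.96, 7.61 and 8.13 FPKM with BCT. The groups were far apart and the BCT values close together. On the log2 scale NCOA1 differed by 0.72 (SE 0.07; limma adjusted p = 1.6e-05), below the threshold. NCOA2 (chromosome 8, 71024267 to 71316020, minus strand) measured 7.90, 8.90 and 8.08 FPKM under DMSO and 8.90, 8.81 and 9.52 FPKM under BCT. DMSO replicate 2 reached the level of the BCT samples. The log2 fold change of NCOA2 was 0.13 (95% interval -0.02 to 0.28, adjusted p = 0.102 from limma), and it was -0.14 after the GC and length correction and 0.89 with equal FPKM sums. With median-of-ratios scaling NCOA2 was at 0.17 and passed the FDR as higher (limma adjusted p = 0.048).

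EP300 (chromosome 22, 41488614 to 41576081, plus strand) had the largest change of the 9 genes. It measured 9.47, 12.3 and 12.2 FPKM in the DMSO samples and 29.8, 35.3 and 38.3 FPKM in the BCT samples. The lowest BCT value was thus far above the highest DMSO value, and replicate 1 was the lowest sample of either group. The mean rose from 11.3 ± 1.62 to 34.5 ± 4.30 FPKM (SD, n = 3 each), 3.04-fold, or by 1.597 on the log2 scale (SE 0.12; limma adjusted p = 5.8e-06), above 96.2% of the genes tested. It ranged from 1.47 to 1.70 when 1 sample was left out, and was 1.47 after the GC and length correction. The genes nearest to EP300 over the 6 samples, by the same distance, were DSP (0.10), ZNF550 (0.14) and TAGLN (0.16).

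A neighbor of EP300 on the opposite strand went the other way. EP300-AS1, a long noncoding RNA whose GENCODE interval reaches into EP300 without sharing an exon, fell from 6.71, 6.06 and 7.11 FPKM with DMSO to 0.710, 0.482 and 0.516 FPKM with BCT. On the log2 scale EP300-AS1 differed by -3.34 (SE 0.15; limma adjusted p = 6.6e-07), and no BCT value came near a DMSO value. EP300-AS1 was singled out after its values were seen. Strand use is not stated, so reads of the EP300 and EP300-AS1 transcripts cannot be told apart where their intervals overlap. Their GENCODE exons do not overlap.

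NCOR1 (chromosome 17, 15933408 to 16118874, minus strand) measured 24.1, 26.6 and 23.4 FPKM under DMSO and 35.6, 36.1 and 34.8 FPKM under BCT. The BCT samples were closer to each other than the DMSO samples, and the groups did not overlap. On the log2 scale NCOR1 differed by 0.52 (SE 0.06; limma adjusted p = 5.2e-05), short of the threshold, and it was 0.23 after the GC and length correction. The value of NCOR1 is uncertain for a pair of reasons. NCOR1P1, a pseudogene copy, rose from 1.70 ± 0.645 to 4.93 ± 1.45 FPKM (SD, n = 3 each; log2 fold change 1.52, adjusted p = 0.0018 from limma, but 0.14 when tested against 0.85), and reads may be shared between the copies. TTC19, on the opposite strand with an overlapping exon, went from 27.5 ± 1.299 to 20.1 ± 0.838 FPKM (SD, n = 3 each; log2 fold change -0.45, or 0.32 with equal FPKM sums). NCOR1P1 and TTC19 were also named after their values were seen.

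**Figure D2:**
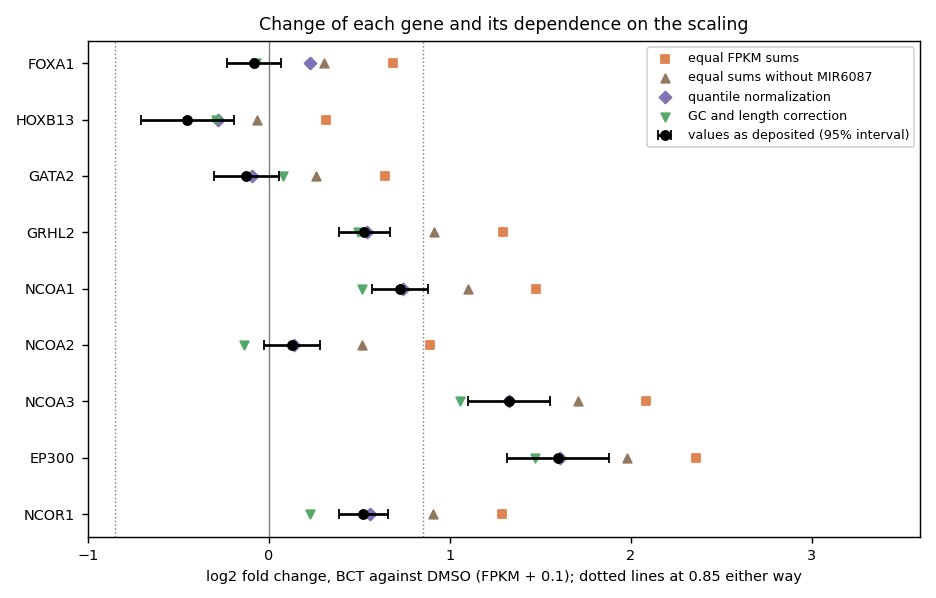
Log2 fold change of each gene, BCT against DMSO, on FPKM + 0.1; black points are the deposited values with their 95% limma intervals, colored marks are other scalings, and dotted lines mark 0.85 in either direction. EP300 and NCOA3 lay above 0.85 in all of them, equal FPKM sums carried GRHL2, NCOA1, NCOA2 and NCOR1 past it, and the signs of FOXA1, HOXB13, GATA2 and NCOA2 turned under at least 1 of them.

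The called genes EP300 and NCOA3 are shown with the 250 bases upstream of their RefSeq start (build GRCh38.p14, written 5′ to 3′ on the strand of the gene), beside FOXA1, whose level did not pass the test. The EP300 window is chr22:41092342-41092591 on the plus strand, that of NCOA3 is chr20:47501637-47501886 on the plus strand, and that of FOXA1 is chr14:37595250-37595499 on the minus strand. Capitals mark matches to 6 short motifs on either strand: the GC box GGGCGG, the CCAAT box CCAAT, the TATA box TATAAA, the E-box CACGTG, the cyclic AMP element TGACGTCA and AGAACA, core letters of steroid hormone response elements.
EP300: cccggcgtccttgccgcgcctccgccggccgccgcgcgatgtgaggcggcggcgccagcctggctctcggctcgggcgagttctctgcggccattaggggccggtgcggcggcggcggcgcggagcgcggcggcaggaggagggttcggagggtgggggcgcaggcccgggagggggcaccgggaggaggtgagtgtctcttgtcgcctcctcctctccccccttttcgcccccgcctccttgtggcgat
NCOA3: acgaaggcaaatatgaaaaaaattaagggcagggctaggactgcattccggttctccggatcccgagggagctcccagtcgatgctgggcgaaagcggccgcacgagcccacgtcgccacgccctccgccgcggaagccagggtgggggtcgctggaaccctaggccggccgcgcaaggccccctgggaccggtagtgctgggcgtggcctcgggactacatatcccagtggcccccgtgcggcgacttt
FOXA1: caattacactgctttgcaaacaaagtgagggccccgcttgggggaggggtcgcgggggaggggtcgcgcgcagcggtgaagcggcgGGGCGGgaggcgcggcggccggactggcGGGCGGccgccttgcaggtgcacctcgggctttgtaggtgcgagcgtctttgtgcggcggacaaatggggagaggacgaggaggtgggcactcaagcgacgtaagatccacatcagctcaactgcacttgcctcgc

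The EP300 and NCOA3 windows held 0 matches to any of these motifs, and the FOXA1 window held 2 GC boxes. Of 35116 RefSeq windows of the same length, 42.6% held a GC box, 32% a CCAAT box, 12.4% the letters AGAACA, 10.7% a TATA box, 6.34% an E-box and 1.65% the cyclic AMP element. The windows of EP300, NCOA3 and FOXA1 had a GC content of 76.8%, 66.4% and 67.2%. No match says only that these letters are not in this window.

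With DMSO, the order of levels was FOXA1, HOXB13, GATA2, NCOR1, GRHL2, EP300, NCOA2, NCOA3 and NCOA1. Pioneer factors thus held the first 3 places, and the ranges of the samples overlapped between GATA2 and NCOR1 and between NCOA3 and NCOA1 alone. With BCT, the order was FOXA1, HOXB13, NCOR1, EP300, GRHL2, GATA2, NCOA3, NCOA2 and NCOA1, and neighbors overlapped between NCOR1 and EP300 and between GRHL2 and GATA2. EP300 moved from place 6 to place 4 and NCOA3 from 8 to 7. GATA2 moved from place 3 to place 6, while its own groups overlapped.

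Ratios of a pair of genes within a sample do not change with a factor that scales the whole sample. Of 13 ratios compared, 12 did not overlap between the groups, 5 with BCT above DMSO and 7 with BCT below. Among all pairs of tested genes above 0 in every sample, 85.1% of ratios did not overlap either, so the count itself is near the background. The smallest p that an exact two-sided permutation test allows with 3 samples a group is 0.1, and these 12 ratios gave it (0.108 after Benjamini-Hochberg adjustment over the 13). The balance of coactivator to corepressor moved most for EP300. The EP300 to NCOR1 ratio was 0.392, 0.464 and 0.521 with DMSO and 0.838, 0.978 and 1.10 with BCT, a log2 change of 1.08. NCOA3 to NCOR1 went from 0.207 ± 0.010 to 0.367 ± 0.042 (SD, n = 3 each) and NCOA1 to NCOR1 from 0.192 ± 0.0055 to 0.223 ± 0.011. NCOA2 to NCOR1 went the other way, from 0.335 ± 0.0086 to 0.256 ± 0.015.

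Within the steroid receptor coactivator family, NCOA2 and NCOA3 traded places. NCOA2 made up 45.6% ± 0.375 of the summed FPKM of the family with DMSO and 30.3% ± 1.10 with BCT (SD, n = 3 each). The share of NCOA3 was 28.2% ± 0.686 and 43.3% ± 2.62, whereas that of NCOA1 was 26.2% ± 0.330 and 26.4% ± 1.54. The summed level was 17.2, 19.6 and 17.7 FPKM with DMSO and 28.3, 30.1 and 31.6 FPKM with BCT. The NCOA2 to NCOA3 ratio was 1.68, 1.57 and 1.61 with DMSO and 0.780, 0.646 and 0.680 with BCT, so NCOA3 was the lesser of the pair in every DMSO sample and the greater in every BCT sample.

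Among the pioneer factors, the FOXA1 to GATA2 ratio was the only 1 of the 13 that overlapped, at 5.50 ± 0.452 with DMSO and 5.65 ± 0.124 with BCT (SD, n = 3 each; exact permutation p = 0.6). HOXB13 to GRHL2 had the largest change in this group, from 5.36, 4.25 and 5.03 with DMSO to 3.14, 2.20 and 2.15 with BCT. The HOXB13 transcript was thus lower relative to each of the other pioneer factors in every BCT sample, with FOXA1 to HOXB13 at 1.70 ± 0.090 and 2.19 ± 0.162.

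**Figure D3:**
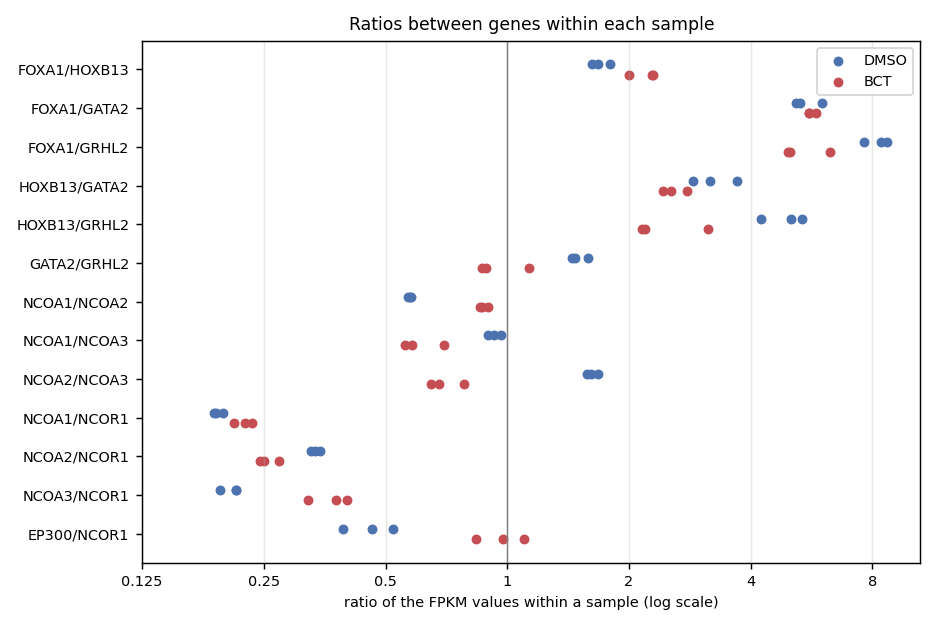
Ratio of FPKM between pairs of genes within each sample, on a log scale, for the 3 DMSO samples (blue) and the 3 BCT samples (red); the grey line marks equal levels. The groups were apart in 12 of 13 ratios, beside 85.1% of the ratios of all gene pairs, with FOXA1 to GATA2 as the exception.

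The 9 transcripts also differ in length and base composition by role. The canonical GENCODE transcripts of the pioneer factors run from 3039 bases (HOXB13) to 5232 bases (GRHL2), with a GC content of 49.8% (GRHL2) to 59.7% (GATA2). Those of the coregulators run from 7381 bases (NCOA1) to 10705 bases (NCOR1), with a GC content of 42.7% (NCOA3) to 49.8% (EP300). The medians of all tested genes were 3206 bases and 48.3%. With GC content and length corrected, EP300 and NCOA3 were still called higher, the same 5 genes passed the FDR as higher, and NCOA2 joined HOXB13 among those lower on the FDR (-0.14, adjusted p = 0.038 from limma; 0.061 with the replicate block added). The share of all genes that passed the FDR alone after this correction was not counted.

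Other genes of the same machinery were counted by role from 3 lists written from general knowledge, with earlier results of these data known. Of 56 further coactivators tested, 16 were called higher (28.6%, beside 13.9% of all genes) and 4 lower (7.14%, beside 17.8%), with a median log2 fold change of 0.45. CREBBP, the paralog of EP300, measured 6.72, 7.83 and 7.53 FPKM under DMSO and 20.9, 23.8 and 24.8 FPKM under BCT, which is 1.64 on the log2 scale (SE 0.08) beside 1.597 for EP300. GSN, an actin-severing protein, rose from 4.31 ± 0.438 to 13.9 ± 0.379 FPKM (SD, n = 3 each). CCAR1, which links receptors to the Mediator complex, rose from 27.4 ± 1.17 to 82.2 ± 5.52 FPKM, and PNRC1, a small proline-rich nuclear receptor coactivator, from 14.0 ± 1.86 to 41.8 ± 7.42 FPKM. The 4 that fell were SMARCC1 (-1.10), a core subunit of the SWI/SNF remodeler, the acetyltransferase KAT2A (-1.07), the BET protein BRD3 (-1.05) and WHSC1 (-0.94), which encodes the histone methyltransferase NSD2. With GC content and length corrected, 12 coactivators were called higher and 6 lower, rather than 16 and 4. Both counts thus moved toward the shares of all genes. With equal FPKM sums, 38 coactivators were called higher and 0 lower, beside 5609 and 668 of all 12729 genes tested.

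Of 30 further corepressors tested, 3 were called higher (10%) and 6 lower (20%), shares near the 13.9% and 17.8% of all genes, with a median of -0.19. GPS2, a subunit of the NCOR1 complex, rose from 35.8 ± 0.394 to 118.9 ± 12.7 FPKM (SD, n = 3 each; log2 fold change 1.72). Of other subunits of that complex, HDAC3, TBL1X and TBL1XR1 were short of the threshold and were named after their values were seen, at 0.06 on the log2 scale for HDAC3, -0.23 for TBL1X and -0.13 for TBL1XR1. Both TBL1X and TBL1XR1 were positive with equal FPKM sums (0.54 and 0.64). LCOR, a ligand-dependent corepressor, rose from 3.53 ± 0.359 to 9.08 ± 1.28 FPKM, and the Groucho family member TLE1 from 0.657 ± 0.028 to 2.15 ± 0.061 FPKM. Its relative TLE2 fell from 13.8 ± 1.32 to 3.87 ± 0.705 FPKM. RBBP4 (-1.45) and RBBP7 (-1.25), histone-binding subunits of deacetylase and other chromatin complexes, and CORO2A (-0.98), found with NCOR1, also fell. With equal FPKM sums the counts were 10 higher and 1 lower, beside 5609 and 668 of all 12729 genes tested.

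Of 34 listed pioneer and partner factors, 26 were tested, and 7 were called higher (26.9%, beside 13.9% of all genes) and 5 lower (19.2%, near the 17.8% of all genes), with a median of 0.21. ETV1, an ETS factor activated in a subset of prostate cancers, rose from 6.93 ± 1.07 to 26.3 ± 3.79 FPKM (SD, n = 3 each; log2 fold change 1.91). KLF5 (1.40), a Krüppel-like factor, GRHL1 (1.35), the paralog of GRHL2, and FOXO1 (1.35), a forkhead factor, also rose. POU2F1 (-1.15), an octamer-binding factor, and NFIC (-1.01), a nuclear factor I protein, fell. With equal sums, 13 of these genes were called higher and 1 lower, beside 5609 and 668 of all 12729 genes tested.

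**Figure D4:**
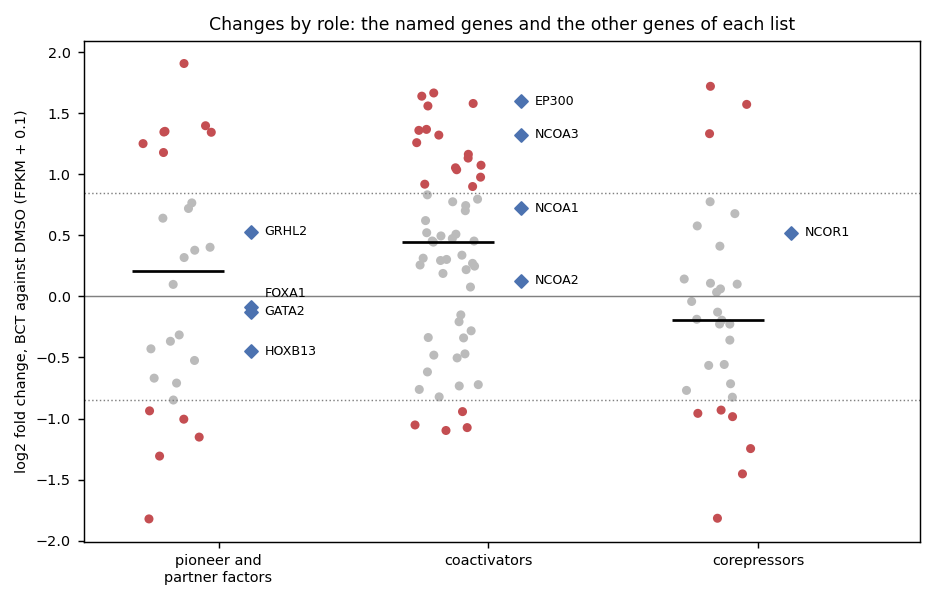
Log2 fold change, BCT against DMSO on FPKM + 0.1, of the 9 genes (blue diamonds) beside the other genes of each role (red, called; grey, not called; sideways scatter has no meaning); black bars are the medians of those other genes, 0.21, 0.45 and -0.19, and dotted lines mark 0.85 in either direction. EP300 and NCOA3 lay among the called coactivators, whereas the pioneer factors FOXA1, HOXB13 and GATA2 lay between the dotted lines, with signs that depend on the scaling.

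In FOXA1, HOXB13 and GATA2, BCT replicate 1 had the highest value of its group, and in GRHL2, NCOA3 and EP300 the lowest, so in these 6 genes it was the BCT sample nearest to the DMSO samples. Across all genes tested, samples correlated at 0.959 to 0.966 within BCT and at 0.967 to 0.972 within DMSO, across genes that are not independent replicates. Leaving out BCT replicate 1 gave 1.70 for EP300 and 1.42 for NCOA3, and the number of genes called stayed at 2.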

How the data were processed

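RNA-seq libraries (TruSeq v2) of 22RV1 cells were sequenced as paired ends. Per the study's methods, the authors trimmed the reads with Trimmomatic (0.38 in the submitters' processing notes, which also name HTSeq and CASAVA), used HISAT2 to align them to hg19 and StringTie for assembly, and deposited gene-level FPKM values, 1 file per sample. The gene annotation is not given in the sources used here.

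The 9 genes and all lists were chosen with earlier results of these data known. From the deposited FPKM values, log2(FPKM + 0.1) was fitted in R 4.3.3 by limma 3.58.1, whose eBayes step used a variance trend, with Benjamini-Hochberg adjustment over the 12729 genes whose mean reached 1 FPKM. Calls used 0.85 and an FDR of 0.05; the study's methods also give 0.01. Genes named beyond the 9 are up to 4 called genes per list and direction with the largest change, and the 3 nearest genes by distance for GRHL2 and EP300; exceptions are stated, and some genes that this rule names are not reported here. NSD2 was matched as WHSC1. Ratios were tested with exact permutation tests (scipy 1.17.1). Positions are those deposited, with 1 added to the start, since 5387 starts then equal a GENCODE gene start (lifted to GRCh37), against 590 without. Transcript length and GC content come from GENCODE, for 96.4% of the tested genes; the correction used loess (span 0.5). The fit was tested on simulated data. RefSeq promoters were read for 6 of the 9 genes, matched by symbol. Alternatives covered the pseudocount, filter, scaling, variance model, threshold, replicate block and each sample left out.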

Additional observations from a re-analysis of the deposited data

How the results depend on the processing

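Of 189 values of the 9 genes under alternatives, 172 had the same sign and stayed on the same side of the threshold, 7 passed it newly and 10 changed sign. EP300 and NCOA3 were called under each alternative run. With equal FPKM sums, the sign turned for FOXA1 (0.69), HOXB13 (0.32) and GATA2 (0.64), and GRHL2 (1.29), NCOA1 (1.48), NCOA2 (0.89) and NCOR1 (1.29) passed the threshold, so 6 of the 9 genes were called and 8 were higher and 0 lower on the FDR alone. With equal sums without MIR6087, the sign turned for FOXA1 (0.30) and GATA2 (0.26), and GRHL2 (0.91), NCOA1 (1.10) and NCOR1 (0.91) passed the threshold, so 5 were called, again with 8 higher and 0 lower on the FDR. Of all 12729 genes tested, 5609 were called higher and 668 lower with equal sums, and 3369 and 1208 without MIR6087. How many of all genes passed the FDR alone was counted with the deposited values and all 6 samples only, not under any alternative. These scalings shift the median of all genes to 0.72 and 0.34 by construction, and relative to that median HOXB13 was at -0.40 and -0.41. By the same measure FOXA1 was at -0.034 and -0.040 and GATA2 at -0.078 and -0.082. Quantile normalization turned FOXA1 (0.23, now past the FDR), and median-of-ratios scaling put NCOA2 past it (0.17), so with each of these 6 genes rather than 5 were higher on the FDR. The GC and length correction turned GATA2 (0.080) and NCOA2 (-0.14), with or without the replicate block, and put 2 genes rather than 1 lower on the FDR; the cause was not tested.

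Counts over all genes moved in the same way. Higher calls numbered 2657 without a filter, 1150 at a mean of at least 5 FPKM, 5609 and 3369 with the respective rescalings to equal sums and 1033 when limma tested against 0.85 itself. Lower calls numbered 668 and 1208 with the rescalings and 1392 with that test. Partner factors called higher were 13 with equal sums, and those called lower were 3 at the stricter filter, 1 and 2 with the rescalings and 2 with the threshold test. Coactivators called higher were 38 and 26 with the rescalings, and those called lower were 0 with both and 1 with the threshold test. Corepressors called higher were 10 and 6, and those called lower were 1 and 3 with the rescalings and 3 with the threshold test. TTC19 (0.32), TBL1X (0.54, and 0.16 without MIR6087) and TBL1XR1 (0.64, and 0.26) changed sign with equal sums. Of 582 values of 28 other named genes under alternatives, 551 kept sign and call, and 25 had the same sign but were no longer called. Equal sums ended the calls of POU2F1, NFIC, SMARCC1, KAT2A, BRD3, WHSC1, RBBP4, RBBP7 and CORO2A, and a pseudocount of 1 those of POU2F1 and CORO2A. The test against 0.85 ended the calls of POU2F1, NFIC, KAT2A, BRD3, WHSC1, CORO2A and NCOR1P1 (adjusted p from 0.098 for POU2F1 to 0.74 for CORO2A in limma, and 0.14 for NCOR1P1), and equal sums without MIR6087 those of POU2F1, NFIC, SMARCC1, KAT2A, BRD3, WHSC1 and CORO2A.

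With 1 sample left out, the fits kept at least 2 samples a group. Of the 9 genes, those lower on the FDR ranged in number from 1 to 3, the higher number without BCT replicate 1. FOXA1 ranged from -0.15 to -0.036, GATA2 from -0.20 to -0.060 and NCOA2 from 0.096 to 0.18. GATA2-AS1 ranged from -0.0082 to 0.095 and the log2 change of the FOXA1 to GATA2 ratio from -0.00065 to 0.11, both crossing 0.

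Both groups carry replicate numbers 1 to 3. Same-numbered samples deviated together with correlations of 0.116, 0.033 and 0.034, and differently numbered ones with -0.115 to 0.074. These values do not settle whether the samples were paired. The numbers were not taken as pairs, and a replicate block was run as an alternative. With that block, EP300 (1.597) and NCOA3 (1.33) were called as before, 2 of the 9 genes. The limma adjusted p of HOXB13 was 0.00062 with the block and 0.0051 without it. Depth is known here only as a ratio between samples, so no counting error can be given for any gene.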
